A study of Mus musculus with 8 samples.

Results

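The lysosome is the acidic organelle in which cells break down glycans, lipids, proteins and nucleic acids. The genes described here are 48 mouse genes for lysosomal proteins other than the cathepsins and the subunits of the proton pump. They were taken by name from a list, without a limit on their values, and comprise 11 membrane proteins, 11 glycosidases, 6 sulfatase genes including the sulfatase activator Sumf1, 10 lipid enzymes and activators, 4 other hydrolases and 6 sorting proteins. Of these, 46 were among the 13056 genes of the table of sorted mouse embryonic stem cells (mESCs) and 47 were among the 14319 genes of the table of overexpressing mESCs. Galns, the sulfatase that acts on keratan sulfate, was not analysed here, and Arsb was not analysed in sorted cells.

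All cells were mESCs of the cross C57BL/6(F) x 129/sv(M), grown in serum with LIF, the cytokine that keeps mESCs undifferentiated. In the first experiment, 500 cells per sample were sorted from a line grown from a picked colony, as mESCs with the KLF3-GFP signal (KLF3-GFP-positive) and without it (KLF3-GFP-negative). KLF3 is a zinc finger transcription factor of the Krüppel-like family. Here its N-terminal part, without the DNA-binding domain, was fused to Emerald GFP under the CAGGS promoter, and positive cells were rare. Their RNA was amplified with Smart-seq2, a protocol that copies full-length cDNA from few cells. In the second experiment, clones of an mESC line with the M2rtTA activator at Rosa26 expressed codon-optimised KLF3 (KLF3-OE) or GFP (GFP-OE) under doxycycline for 72 h, and poly(A) RNA was sequenced. Each of the 4 conditions had 2 samples, but the deposited tables hold 1 value per gene and condition, the authors' mean. The values are FPKM, fragment counts scaled to transcript length and sequencing depth. The spread between replicates and the read depth are therefore unknown, no difference below could be tested against replicate error, and each is a description of 2 means.

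Soluble hydrolases are made in the endoplasmic reticulum, receive a mannose 6-phosphate tag in the Golgi, and are carried to lysosomes by mannose 6-phosphate receptors, whereas membrane proteins such as LAMP1 follow signals in their own tails. Many lysosomal genes carry an E-box in their promoter that the factors of the MiT/TFE family (TFEB, TFE3, MITF and TFEC) bind. Inherited loss of single hydrolases or membrane proteins causes lysosomal storage diseases.

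Because these genes are known for promoters with such an E-box, the promoters that hold it are shown first. RefSeq (GRCm38.p6, the assembly of mm10) gave windows from 250 bases before to 50 bases after the start site for 41 of the 48 genes. The entries for Npc1, Laptm4b, Galns, Asah1, Aga, Sort1 and M6pr were missing. The motif CACGTG, searched on both strands, was present in 13 of the 41 genes (31.7%), namely Arsa, Cln3, Gaa, Gla, Glb1, Gnptg, Igf2r, Lamp1, Mcoln1, Naglu, Nagpa, Sgsh and Sumf1. It was present in 7.15% of all 32851 promoters and in 12.5% of the genes compared in sorted cells that had a promoter sequence. The longer palindrome TCACGTGA, each copy of which contains a CACGTG, was present in 6 of the 41 (14.6%), against 0.974% of all promoters and 2.46% of the genes compared in sorted cells. These were Cln3, Gla, Gnptg, Igf2r, Mcoln1 and Sumf1. The letters CCACACCC, a CACCC box of the kind that Krüppel-like factors bind, were searched likewise on both strands. They were in the windows of 0 of the 41 genes, against 3.56% of all promoters and 4.43% of the genes compared in sorted cells. The absence of these letters says only that they are not in the windows searched.

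Of the promoters below, that of Lamp1 holds the most copies of CACGTG, and those of Igf2r and Gla hold TCACGTGA more than once. Those of Mcoln1 and Gnptg belong to a channel and a tagging enzyme that were both upregulated in KLF3-GFP-positive cells. Lamp1, Igf2r and Gla were upregulated there as well. The promoters shown are thus no measure of how genes with the motif differed. Cln3 and Sumf1, which also hold TCACGTGA, and Glb1, which holds CACGTG, are not shown and were not upregulated. Each promoter is written 5′ to 3′ on the strand of the gene, and the capitals mark CACGTG or TCACGTGA. Lamp1 is at chr8:13158911-13159210 (+), Igf2r at chr17:12769657-12769956 (-), Gla at chrX:134600956-134601255 (-), Mcoln1 at chr8:3500269-3500568 (+) and Gnptg at chr17:25240067-25240366 (-).
Lamp1: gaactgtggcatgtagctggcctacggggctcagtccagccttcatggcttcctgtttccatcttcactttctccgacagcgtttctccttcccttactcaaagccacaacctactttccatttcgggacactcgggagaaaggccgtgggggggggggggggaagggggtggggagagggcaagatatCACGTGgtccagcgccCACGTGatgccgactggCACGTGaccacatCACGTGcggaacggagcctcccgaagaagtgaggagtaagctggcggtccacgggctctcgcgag
Igf2r: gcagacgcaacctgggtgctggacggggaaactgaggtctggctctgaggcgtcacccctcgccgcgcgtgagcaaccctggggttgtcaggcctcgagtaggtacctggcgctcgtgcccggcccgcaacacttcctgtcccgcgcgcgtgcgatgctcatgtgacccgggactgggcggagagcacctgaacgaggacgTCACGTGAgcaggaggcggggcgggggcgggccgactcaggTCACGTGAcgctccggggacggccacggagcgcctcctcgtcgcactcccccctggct
Gla: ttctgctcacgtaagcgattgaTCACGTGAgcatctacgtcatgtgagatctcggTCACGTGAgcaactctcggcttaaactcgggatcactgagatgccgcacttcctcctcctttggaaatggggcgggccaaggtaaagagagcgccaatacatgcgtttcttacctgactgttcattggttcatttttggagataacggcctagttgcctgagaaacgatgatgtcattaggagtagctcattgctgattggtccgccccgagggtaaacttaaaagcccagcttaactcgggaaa
Mcoln1: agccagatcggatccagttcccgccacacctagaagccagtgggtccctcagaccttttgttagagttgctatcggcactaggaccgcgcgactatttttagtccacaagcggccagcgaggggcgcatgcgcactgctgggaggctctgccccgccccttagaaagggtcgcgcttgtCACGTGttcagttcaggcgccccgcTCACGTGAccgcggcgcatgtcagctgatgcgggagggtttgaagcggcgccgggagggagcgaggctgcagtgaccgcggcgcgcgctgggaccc
Gnptg: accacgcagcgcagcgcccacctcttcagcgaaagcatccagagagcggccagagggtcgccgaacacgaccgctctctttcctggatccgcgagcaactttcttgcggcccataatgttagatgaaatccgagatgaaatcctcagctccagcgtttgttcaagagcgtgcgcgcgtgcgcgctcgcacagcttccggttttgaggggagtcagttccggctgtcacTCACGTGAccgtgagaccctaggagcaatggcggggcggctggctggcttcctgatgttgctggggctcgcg
The 4 copies of CACGTG in the Lamp1 window begin at -61, -45, -28 and -15, counted from the start site as base 1 with no base 0. In Igf2r the CACGTG of both longer palindromes begins at -48 and -7, and in Gla at -227 and -194. A match is a description of the sequence and was not tested for binding.

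KLF3-GFP-positive cells had more of most lysosomal transcripts than KLF3-GFP-negative cells. Genes were compared where the mean of both columns was at least 1 FPKM, as differences of log2(FPKM + 1), and those past a 2-fold difference on this scale were called upregulated or downregulated. For weakly expressed genes, differences on this scale come out smaller than the ratio of their FPKM. Of the 40 lysosomal genes that passed this minimum, 23 were upregulated (57.5%) and 0 were downregulated. Over all 9212 genes compared, 13.8% were upregulated and 8.32% downregulated. The differences ranged from -0.87 to 3.67 with a median of 1.08, whereas the median of all genes was 0.03. Of the 40 genes, 36 were above 0, and Laptm4b, Manba, Psap and Gm2a were below. Arsa and Ctns, both upregulated, passed the minimum only through the KLF3-GFP-positive column. Among the 36 genes with at least 1 FPKM in both columns, an alternative chosen after the data were seen, 21 were upregulated and the median was also 1.08. The 6 genes under the minimum were Naglu, Idua, Sgsh, Ids, Galc and Sort1, each below 1 FPKM in both columns. The upregulated genes nearest the limit were Scarb2, Smpd1, Aga and Gnptab, which fell under it with quantile normalization.

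The summed level of the 46 genes was 593 FPKM in negative and 3032 FPKM in positive cells, or 0.0656% and 0.320% of the FPKM of the whole table. Cd63 alone made up 56.3% of the sum in KLF3-GFP-positive cells. Without it, the sums were 460 and 1325 FPKM, and 22 of 39 genes were upregulated. In bulk samples such as these, fewer cells of a type and less RNA per cell cannot be told apart.

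**Figure D1:**
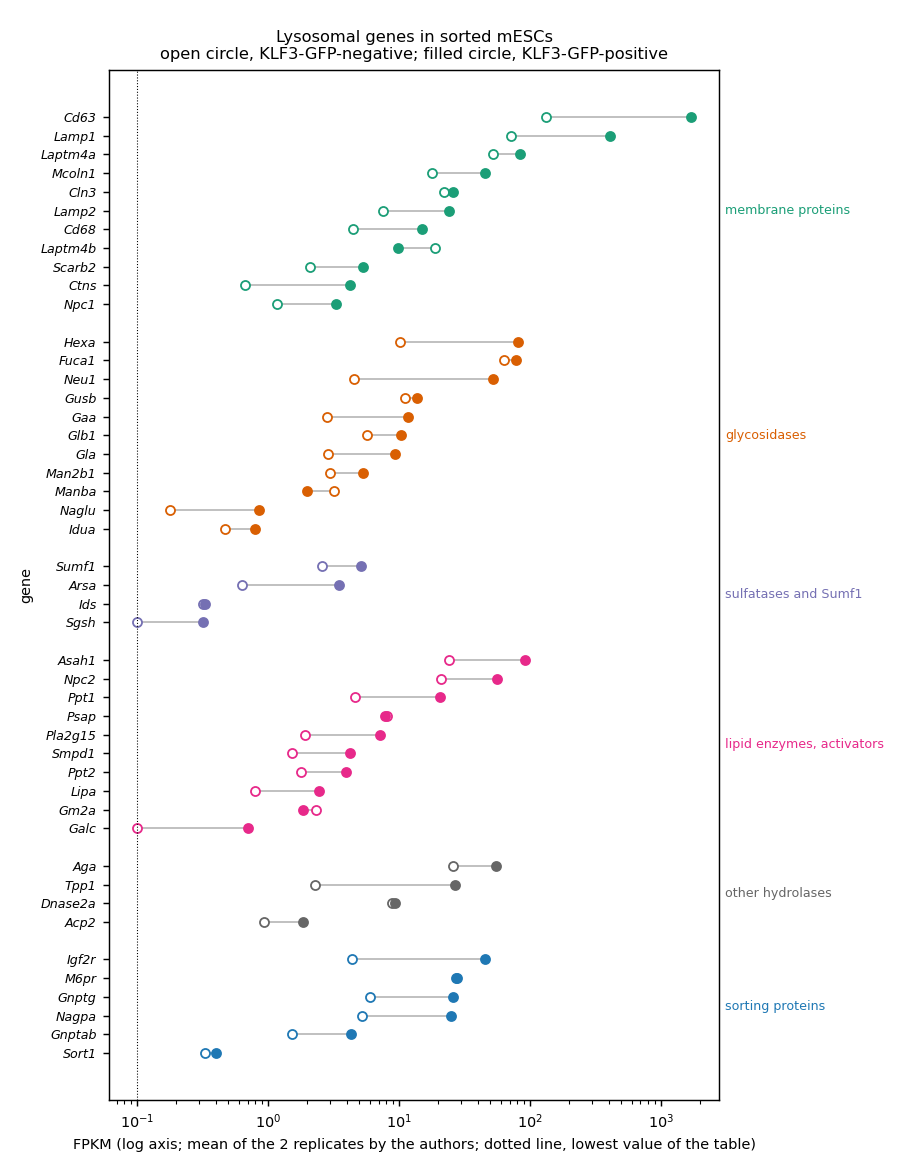
Levels of the 46 lysosomal genes in sorted mESCs by function, in FPKM on a log axis, with 1 open circle (KLF3-GFP-negative) and 1 filled circle (KLF3-GFP-positive) per gene, each the authors' mean of 2 replicates. The filled circle lies to the right for 42 genes, by most for Cd63 (133 and 1708 FPKM), Neu1 and Tpp1 among genes with at least 1 FPKM in both columns.

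Markers of another cell type moved with this comparison. All 10 primitive endoderm markers were upregulated in KLF3-GFP-positive cells, their summed level being 9.64 FPKM in negative and 572 FPKM in positive cells. Dab2, an endocytic adaptor, had 0.78 and 233 FPKM, and the transcription factor Sox17 had 2.76 and 53.2 FPKM. Of 10 mESC markers, all were lower and 6 were downregulated, Nanog from 20.8 to 5.03 FPKM and Pou5f1, which stayed under the limit, with 115 and 59.4 FPKM. The trophoblast list had 9 of 10 genes in the table, of which Krt8 and Krt18, keratins that other epithelia also make, were upregulated, whereas Ascl2 was downregulated (2.73 and 0.81 FPKM) and Tfap2c had 2.40 and 0.77 FPKM (-0.94). Of 10 macrophage markers 3 were in the table, with sums of 1.9 and 2.35 FPKM, and of 8 fibroblast markers 2 were, with sums of 0.55 and 0.51 FPKM. The part of primitive endoderm cells in the lysosomal differences was not tested. Klf3 itself had 107 and 122 FPKM, which includes any reads from the fusion construct.

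Among the 11 membrane proteins, 7 were upregulated and the median difference was 1.31. Cd63, a tetraspanin of late endosomes and lysosomes at chr10:128908919-128912816, had 133 FPKM in negative and 1708 FPKM in positive cells, which is 3.67 on the log2 scale (12.7-fold on this scale). Lamp1, a heavily glycosylated protein of the lysosomal membrane, had 72.1 and 413 FPKM, a difference of 2.503 (5.67-fold). Both genes were the highest of the whole set in either column. On this scale they also had the highest differences of the group, but by the ratio of FPKM Ctns (6.36) exceeded Lamp1 (5.74). Of the exonic bases of Lamp1, 9.31% overlap Grtp1 on the other strand, which had 72.7 and 92.3 FPKM.

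Its relative Lamp2, which also serves in chaperone-mediated autophagy, rose from 7.55 to 24.1 FPKM, a difference of 1.55. The lysosome-associated glycoprotein gene Cd68, often used as a macrophage marker, rose from 4.50 to 15.04 FPKM (1.54). Ctns, the exporter of cystine, had 0.67 and 4.26 FPKM (1.66), and Mcoln1, a calcium channel of the lysosomal membrane, had 17.8 and 45.6 FPKM (1.31). The channel gene Mcoln1 was thus upregulated beside the structural glycoproteins, whereas Ctns passed the minimum only through the KLF3-GFP-positive column.

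Scarb2, an abundant lysosomal membrane protein that also acts as a sorting receptor, lay at the limit with 2.09 and 5.28 FPKM (1.02), and the cholesterol transporter Npc1 lay just below it with 1.18 and 3.30 FPKM (0.98). Laptm4a had 52.0 and 83.6 FPKM (0.67), and Cln3, a membrane protein lost in juvenile Batten disease, had 22.0 and 26.0 FPKM (0.23). Laptm4b, the paralogue of Laptm4a, had the lowest difference of the whole set, with 18.8 and 9.80 FPKM (-0.87). The ratio of Laptm4a to Laptm4b was 2.77 in negative and 8.53 in positive cells.

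Of the 9 glycosidases compared, 4 were upregulated and the median difference was 0.76. Neu1, the lysosomal sialidase, rose from 4.51 to 52.7 FPKM, a difference of 3.28 (9.74-fold). Hexa, the alpha subunit of beta-hexosaminidase, rose from 10.2 to 81.0 FPKM, a difference of 2.87 (7.31-fold). Gaa, which degrades glycogen, had 2.81 and 11.9 FPKM (1.75), and Gla, the alpha-galactosidase of Fabry disease, had 2.88 and 9.36 FPKM (1.42).

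The remaining glycosidases compared stayed under the limit. Fuca1, the alpha-fucosidase, was the third most abundant gene of the set in negative cells, with 63.9 and 78.1 FPKM (0.28), and the beta-glucuronidase Gusb had 11.2 and 13.8 FPKM (0.28). The difference was 0.76 for the beta-galactosidase Glb1, 0.68 for the alpha-mannosidase Man2b1 and -0.49 for the beta-mannosidase Manba, whose levels were 3.18 and 1.98 FPKM. The enzymes for glycosaminoglycans Naglu and Idua were below 1 FPKM in both columns.

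Cathepsin A (Ctsa), which binds Neu1 and Glb1 in 1 complex, rose from 11.1 to 66.9 FPKM, and the ratio of Neu1 to Ctsa was 0.408 and 0.788. Counting that assigned reads by position could touch some of these values, since 12.8% of the exonic bases of Hexa overlap Tmem202 on the other strand. No level of Tmem202 was available in either experiment. The study's methods state default settings for these programs and name no strand option.

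The sulfatase genes had the lowest summed level of the 6 functional groups. Arsa, which removes sulfate from sulfatide, rose from 0.64 to 3.47 FPKM (1.45), and Sumf1, which activates all sulfatases in the endoplasmic reticulum, had 2.57 and 5.11 FPKM (0.78). Sgsh and Ids, both for heparan sulfate, had no more than 0.33 FPKM in either column.

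Of the 9 genes for lipid breakdown that were compared, 5 were upregulated and the median difference was 1.05. Ppt1, a thioesterase that removes palmitate from proteins, had 4.62 and 20.6 FPKM (1.94), and Asah1, the acid ceramidase, had 24.3 and 91.8 FPKM (1.88). Pla2g15, the lysosomal phospholipase A2, rose from 1.93 to 7.12 FPKM (1.47), and the soluble cholesterol carrier Npc2 rose from 20.8 to 55.9 FPKM (1.38). Smpd1, the acid sphingomyelinase, was near the limit with 1.53 and 4.23 FPKM (1.05).

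Lipa, the acid lipase for cholesteryl esters, had 0.80 and 2.44 FPKM (0.93), and Ppt2 had 1.79 and 3.94 FPKM (0.82). The activators showed no such difference: Psap, the precursor of the saposins that present sphingolipids to their enzymes, had 8.12 and 7.82 FPKM (-0.05), and Gm2a, the activator of hexosaminidase A on ganglioside GM2, had 2.35 and 1.85 FPKM (-0.23). Galc, the galactocerebrosidase that a saposin assists, was listed at 0.10 FPKM, the lowest value of the table, in negative cells and at 0.70 FPKM in positive cells.

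Of the 4 other hydrolases, Tpp1 and Aga were upregulated. Tpp1, a peptidase that removes tripeptides from the ends of proteins, had 2.31 and 26.9 FPKM, a difference of 3.08 (8.43-fold), and Aga, which splits asparagine from glycans, had 25.9 and 55.6 FPKM (1.07). The nuclease gene Dnase2a had 8.85 and 9.43 FPKM (0.08), and the acid phosphatase gene Acp2 had 0.93 and 1.85 FPKM (0.56). Of their exonic bases, 30.0% of those of Dnase2a overlap Mast1 and 12.6% of those of Acp2 overlap Ddb2, both on the other strand.

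Of the 5 sorting genes compared, 4 were upregulated, and their median of 1.92 was the highest of the 6 functional groups. Igf2r, the large mannose 6-phosphate receptor that also clears IGF2, rose from 4.38 to 45.3 FPKM, a difference of 3.10 (8.60-fold). M6pr, the small mannose 6-phosphate receptor, had 27.5 and 28.0 FPKM (0.03). The ratio of Igf2r to M6pr was thus 0.159 in negative and 1.62 in positive cells.

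The genes that make the tag were all upregulated, Gnptab near the limit. Nagpa, the uncovering enzyme that exposes mannose 6-phosphate, had 5.26 and 25.2 FPKM (2.07). Gnptg, the gamma subunit of the phosphotransferase, had 6.05 and 25.7 FPKM (1.92), and Gnptab, which encodes its alpha and beta subunits, had 1.52 and 4.34 FPKM (1.08). Of the exonic bases of Gnptg, 49.5% overlap Unkl on the other strand, which had 2.69 and 4.43 FPKM. The sorting receptor Sort1 was below 1 FPKM in both columns.

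**Figure D2:**
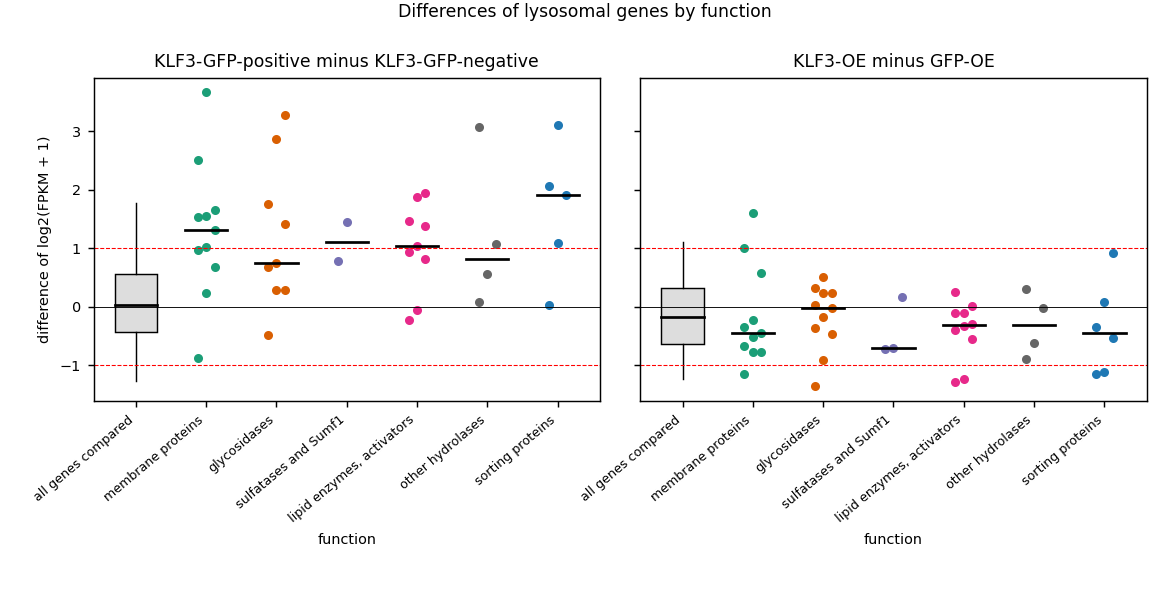
Differences of log2(FPKM + 1) for the lysosomal genes compared, 1 point per gene, by function, in sorted cells (left) and overexpressing cells (right), with black bars for medians, dashed lines at a 2-fold difference, and a box of the quartiles with whiskers to percentiles 5 and 95 for all genes. In sorted cells the group medians lie between 0.76 (glycosidases) and 1.92 (sorting proteins), and in overexpressing cells between -0.70 (sulfatases and Sumf1) and -0.02 (glycosidases).

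Other lysosomal genes were counted beside these. Of 9 cathepsins compared, 8 were upregulated with a median of 3.07, and of 18 proton pump genes 12 were upregulated with a median of 1.24. Of 40 further lysosomal genes, 14 were upregulated and 0 downregulated, with a median of 0.81. Over all genes compared, 13.8% were upregulated. Some genes in these counts passed the minimum only through the KLF3-GFP-positive column. They were the cathepsin gene Ctsh, the proton pump gene Atp6v0a2, and Man2b2, Plbd1, Slc17a5, Mfsd12 and Tpcn1 of the further genes. Among the MiT/TFE factors, Tfec was listed at 0.10 FPKM in negative and at 27.3 FPKM in positive cells. Tfeb had 2.2 and 4.34 FPKM and Tfe3 had 4.54 and 6.05 FPKM, whereas Mitf was lower in positive cells (0.63 and 0.11 FPKM). The median difference was 1.45 for the 11 lysosomal genes compared that hold CACGTG in the promoter window and 1.04 for the 24 that do not, with 8 and 13 of them upregulated. In overexpressing cells the medians of the same split were 0.06 over 12 genes and -0.35 over 27. For TCACGTGA the medians in sorted cells were 1.36 over 6 genes with it and 1.08 over 29 without, with 4 and 17 upregulated. In overexpressing cells they were 0.13 over 6 genes and -0.35 over 33. With 1 value per condition these gaps could not be tested. Differences were not split by motif over all genes, so the gaps are not a result about lysosomal genes with the motif.

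KLF3 overexpression gave another picture. Of the 45 lysosomal genes compared, only Cd63 was upregulated, against 6.6% of all 11179 genes, and 6 were downregulated (13.3%), against 10.1% of all genes. The downregulated genes were Asah1, Gm2a, Gnptab, Igf2r, Lamp2 and Manba. The differences ranged from -1.35 to 1.61 with a median of -0.35, while the median of all genes was -0.18. After median-ratio scaling, which sets the typical gene to no difference, 3 were upregulated (Cd63, Cln3 and Nagpa) and 3 downregulated (Asah1, Gm2a and Manba), and over all genes 10.4% were upregulated and 6.22% downregulated. A share near that of all genes is not a result about the lysosomal set.

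The summed level of the 47 genes was 1121 FPKM in GFP-OE and 1057 FPKM in KLF3-OE cells, or 0.183% and 0.127% of the FPKM of the whole table, whose totals differed (612621 and 834882 FPKM). Native Klf3 had 58.7 and 47.8 FPKM, and reads of the codon-optimised transgene need not align to it. The Y-linked genes Eif2s3y, Uty and Ddx3y had 30.9, 3.56 and 3.34 FPKM in GFP-OE and 1.67, 0.10 and 0.10 FPKM in KLF3-OE cells, so that the columns also differed in genes outside the design. In sorted cells the same genes had 15.6, 21.4 and 5.96 FPKM in negative and 16.6, 20.0 and 9.83 FPKM in positive cells. A difference between the lines cannot be told apart from one of KLF3 in the values below. All 10 primitive endoderm markers were upregulated here too, from a sum of 17.7 to 99.3 FPKM. Of 10 mESC markers 7 were lower, of which 3 were downregulated, and 3 were higher. The downregulated ones were Nanog (255 and 103 FPKM), Esrrb (138 and 60.3 FPKM) and Klf4 (47.0 and 20.2 FPKM). The higher ones were Pou5f1 (883 and 990 FPKM), Dppa5a (3794 and 6334 FPKM) and Utf1 (204 and 395 FPKM). The median difference of the 10 markers was -0.72. The summed level of the mESC markers was 6466 FPKM in GFP-OE and 8589 FPKM in KLF3-OE cells, with Dppa5a the highest of them in both. As a share of the FPKM of the whole table, the sum was 1.06% in GFP-OE and 1.03% in KLF3-OE cells. Of 7 trophoblast markers compared 3 were upregulated, the 4 fibroblast markers in the table summed to 3.85 and 4.41 FPKM, and the 4 macrophage markers to 1.19 and 1.9 FPKM. The part of these cell types was not tested.

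**Figure D3:**
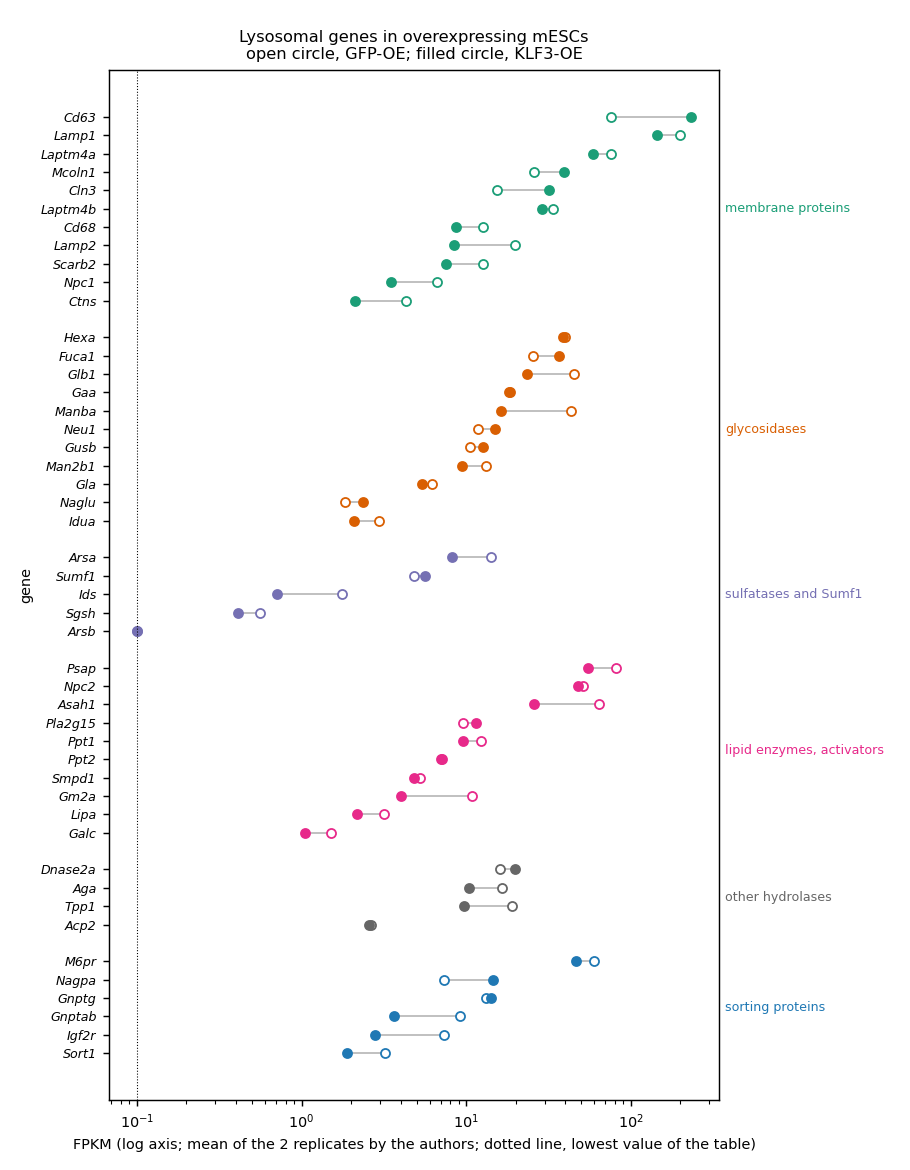
Levels of the 47 lysosomal genes in overexpressing mESCs by function, in FPKM on a log axis, with 1 open circle (GFP-OE) and 1 filled circle (KLF3-OE) per gene, each the authors' mean of 2 replicates. Cd63 (75.8 and 233 FPKM) is the gene with a filled circle farthest to the right of its open circle, and Manba (43.2 and 16.3 FPKM) is among those where it lies farthest to the left.

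Among the membrane proteins, Cd63 rose from 75.8 to 233 FPKM, a difference of 1.61 (3.04-fold), and it exceeded Lamp1 in KLF3-OE cells, whereas Lamp1 was the most abundant gene of the set in GFP-OE cells. Lamp1 itself had 199 and 145 FPKM (-0.45). Lamp2 fell from 19.9 to 8.45 FPKM (-1.14). The tetraspanin and the LAMP glycoproteins, which all had higher levels in KLF3-GFP-positive cells, therefore differed in sign here.

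Cln3 had 15.4 and 31.7 FPKM (0.999), a value just below the limit, and 7.65% of its exonic bases overlap Apobr on the other strand, which had 1 and 2.19 FPKM. Mcoln1 had 25.8 and 39.2 FPKM (0.58). The other 6 membrane genes lay between -0.78 (Ctns, 4.34 and 2.12 FPKM) and -0.23 (Laptm4b, 33.9 and 28.7 FPKM).

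Hexa had nearly equal levels of 39.6 and 39.0 FPKM, and Neu1 had 11.8 and 15.04 FPKM (0.33). Manba fell from 43.2 to 16.3 FPKM (-1.35), the lowest difference of the set, and Glb1 had 45.0 and 23.5 FPKM (-0.91). Fuca1, with 25.3 and 36.7 FPKM, had the highest difference of the glycosidases at 0.52. The other 6 lay between -0.46 (Man2b1) and 0.24 (Naglu, 1.83 and 2.35 FPKM). The median of the 11 glycosidases was -0.02.

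In the lipid group, Asah1 fell from 63.9 to 25.8 FPKM (-1.28) and Gm2a fell from 10.8 to 4.02 FPKM (-1.24). Psap, the most abundant lipid gene, had 81.1 and 54.9 FPKM (-0.55). The others lay between -0.40 (Lipa) and 0.25 (Pla2g15), Npc2 having 51.6 and 47.7 FPKM. Of the sulfatase genes, Arsa had 14.3 and 8.23 FPKM (-0.72), Ids had 1.77 and 0.71 FPKM (-0.70) and Sumf1 had 4.85 and 5.61 FPKM (0.18). Ids passed the minimum through the GFP-OE column only, while Sgsh and Arsb stayed under it, Arsb being listed at 0.10 FPKM in both columns.

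Tpp1 had 18.9 and 9.66 FPKM (-0.90), the lowest difference of the other hydrolases, and Dnase2a had 15.9 and 19.9 FPKM (0.31). Aga had 16.6 and 10.5 FPKM (-0.61) and Acp2 had 2.63 and 2.58 FPKM (-0.02). The sorting genes diverged. Igf2r fell from 7.38 to 2.79 FPKM (-1.14) and Gnptab fell from 9.13 to 3.65 FPKM (-1.12), whereas Nagpa had 7.31 and 14.7 FPKM (0.91) and Gnptg had 13.2 and 14.1 FPKM (0.09). The ratio of Gnptg to Gnptab was 1.45 in GFP-OE and 3.86 in KLF3-OE cells. M6pr had 59.5 and 46.5 FPKM (-0.35), and the ratio of Igf2r to M6pr was 0.124 and 0.0600. Sort1, a receptor that sorts prosaposin and other cargo, had 3.20 and 1.89 FPKM (-0.54).

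The calls for Lamp2, Igf2r and Gnptab rested on the scale used. After median-ratio scaling their differences were -0.95, -0.97 and -0.95, and with the trend on genomic span removed they were -0.88, -0.87 and -0.85. Those of Asah1 and Manba were also past the limit under both. The call for Gm2a was lost with quantile normalization (-0.95) and with the trend on transcript length removed (-0.85).

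Genomic span, the length of the gene from start to end, was one of the gene properties that moved with the overexpression differences in all genes. With all genes ordered by span and divided into quintiles, from the shortest to the longest, the median difference of all genes was 0.35, -0.01, -0.22, -0.44 and -0.49. For the lysosomal genes in the same quintiles it was -0.10, 0.02, -0.34, -0.58 and -0.91, over 7, 15, 10, 6 and 7 genes. Manba and Igf2r, at chr3:135485611-135571404 and chr17:12682406-12769664, span 85794 and 87259 bases, and Cd63 spans 3898 bases. Across genes, which are not independent and share 2 columns, Spearman's rho of the difference with span was -0.47 over the 45 lysosomal genes and -0.40 over all genes. It was 0.53 and 0.32 with the GC content of transcripts and -0.23 and -0.28 with transcript length. In sorted cells rho with span was -0.23 over 40 lysosomal genes and 0.06 over all genes. The part of these properties in the overexpression differences was not tested beyond the removal of each trend. With the span trend removed, 1 lysosomal gene was upregulated and 6 were downregulated, with Cd68, Arsa and Tpp1 past the limit in place of Lamp2, Igf2r and Gnptab. Over all genes 3.94% were then upregulated and 9.65% downregulated, against 13.3% of the lysosomal genes downregulated.

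**Figure D4:**
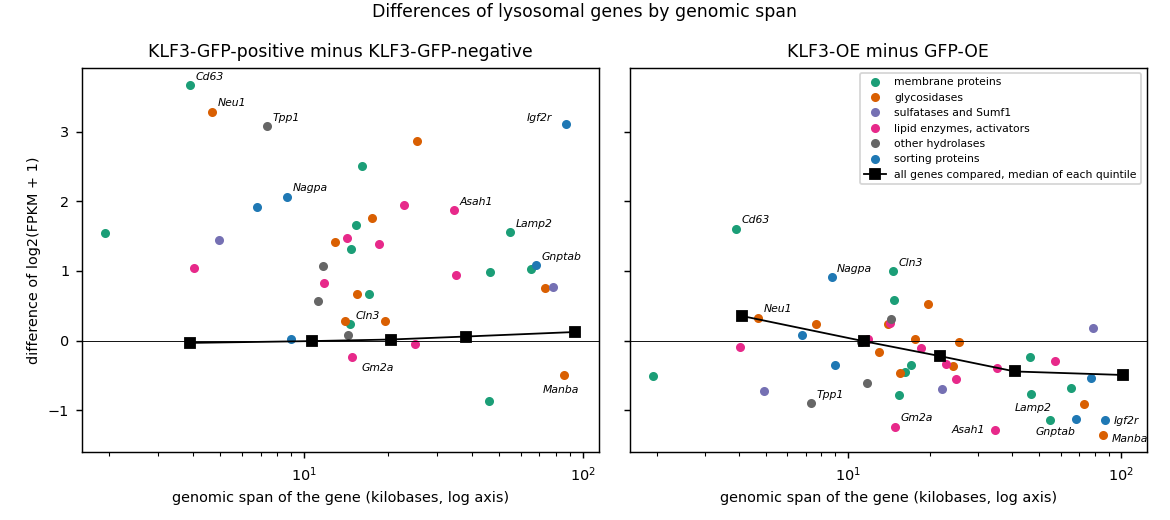
Differences of log2(FPKM + 1) of the lysosomal genes, 1 point per gene coloured by function, against genomic span in kilobases on a log axis, with black squares for the median of all genes in each quintile of span. In overexpressing cells the squares descend from 0.35 to -0.49, and Lamp2, Gnptab, Igf2r and Manba lie at the long end, while in sorted cells the squares stay between -0.03 and 0.12.

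The experiments share no control samples, so their differences could be set side by side for the 40 lysosomal genes compared in both. Cd63 was upregulated in both. Asah1, Gnptab, Igf2r and Lamp2 were upregulated in KLF3-GFP-positive cells and downregulated in KLF3-OE cells, although after median-ratio scaling only Asah1 of these was past the limit in KLF3-OE cells. A further 18 were upregulated in sorted cells alone by this limit. Gm2a and Manba were downregulated in KLF3-OE cells alone, and 15 passed the limit in neither. Over all genes of each experiment, 13.8% were upregulated in sorted cells, 6.6% were upregulated in KLF3-OE cells and 10.1% were downregulated there. Shares of all genes for these pairs of calls were not computed, so the counts are not a result about the lysosomal set. A total of 23 genes (57.5%) were higher in KLF3-GFP-positive and lower in KLF3-OE cells, against 27.9% of the 8887 genes compared in both. A further 13 (32.5%) were higher in both, against 23.8%. These shares reflect each experiment taken alone, since 36 of 40 lysosomal genes were above 0 in sorted cells and 31 of 45 below 0 in overexpressing cells. They do not show that the genes responded in opposite ways as a set.

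The gap between the experiments, as the sorted minus the overexpression log2 difference, was widest for Igf2r (4.25), Tpp1 (3.98), Asah1 (3.15) and Neu1 (2.96). Pearson's r between both sets of differences was 0.16 and Spearman's rho 0.05 over the 40 genes, and 0.21 and 0.08 over all genes. These are descriptions across genes from 1 mean per condition.

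**Figure D5:**
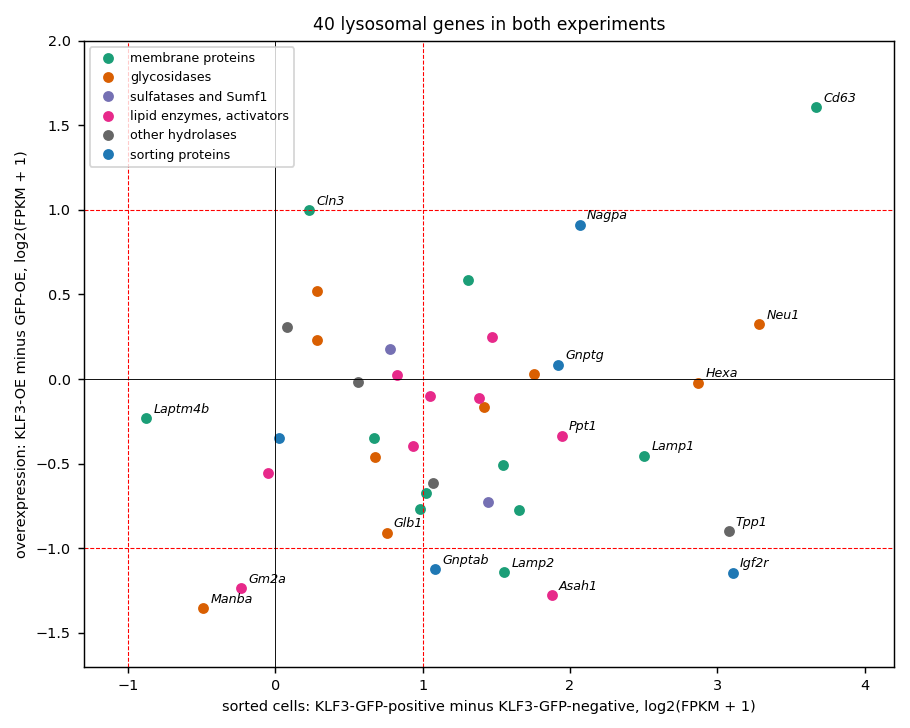
The log2(FPKM + 1) differences of 40 lysosomal genes in sorted cells (horizontal) and in overexpressing cells (vertical), 1 point per gene coloured by function, with dashed lines at a 2-fold difference. Cd63 lies alone at the upper right (3.67 and 1.61), and Asah1, Gnptab, Igf2r and Lamp2 lie at the lower right, past both limits with opposite signs, of which only Asah1 is past the limit in KLF3-OE cells after median-ratio scaling.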

How the data were processed

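The authors aligned RNA-seq reads to mm10 with STAR and computed FPKM with Cufflinks. The submitters' processing notes name STAR 2.6.0 and Cufflinks 2.2.1, whereas the study's methods name another STAR version. The authors deposited FPKM as 1 table per experiment, with 1 mean of 2 replicates per condition, for protein-coding genes, to 2 decimals and with 0.1 as the lowest value. Depth, precision and replicate spread are unknown, so limma and all other tests could not be run and no error is given. Samples were grouped by their labels. A gene identifier listed at several loci was represented by 1 locus.

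Differences of log2(FPKM + 1) were computed where both columns averaged 1 FPKM or more (python 3.11.15, pandas 2.3.3), with a limit of 2-fold, and tried on simulated data. The genes and lists were chosen with earlier results of these data known. Some partner genes are not reported here. Values were given for every gene past the limit in either experiment and for the highest and the most changed of each function; the rest are given by counts and ranges. Genomic spans are from the tables, exon overlaps and transcript properties from GENCODE M21, and promoters from RefSeq. The alternatives were a pseudocount of 0.1, a floor of 0.1, no minimum, a minimum of 5 FPKM, median-ratio scaling, quantile normalization, and lowess trends (fraction 0.3) removed for span, transcript length or GC content. Added after the data were seen were a minimum of 1 FPKM in both columns and the sets without Cd63 or Lamp1.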

Additional observations from a re-analysis of the deposited data

How the results depend on the processing

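No paired analysis was possible because the tables hold 1 mean per condition, and leaving out each replicate was not run for the same reason. In sorted cells, between 19 and 26 lysosomal genes were upregulated under the 9 alternatives, apart from 17 of the 26 genes left at a minimum of 5 FPKM, and the median stayed between 0.95 and 1.48. Over all genes, between 10.1% and 18.6% were upregulated under the same alternatives. The sulfatase median was 1.72 with the floor of 0.1 and 0.52 without a minimum, over 2 and 4 genes, and the glycosidase median was 1.42 at a minimum of 5 FPKM. Quantile normalization made 1 gene, Laptm4b, downregulated. In overexpressing cells, 2 genes were upregulated with a pseudocount of 0.1 and 3 with the floor of 0.1, with median-ratio scaling and with quantile normalization, against 6.6% of all genes in the comparison as reported and 8.26%, 8.54%, 10.4% and 7.16% under these. Downregulated were 7 genes with the pseudocount, 8 with the floor, 3 with median-ratio scaling, 2 with quantile normalization and 4 with the transcript length trend removed, against 16.3%, 17.1%, 6.22%, 6.36% and 8.58% of all genes. Their median stayed between -0.37 and -0.12. For single genes, 330 of the values recomputed for sorted cells kept their call, 9 lost it and 7 gained one, and 370, 13 and 14 did so in overexpressing cells. No called value changed sign. The cause of these changes was not tested. Depth could not be used to limit any statement, because the files do not show it.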

Other observations

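Of the further lysosomal genes, Glmp, a glycosylated lysosomal membrane protein, was upregulated in sorted KLF3-GFP-positive cells, from 79.6 to 435 FPKM (2.43). Gga2, an adaptor that loads mannose 6-phosphate receptors into vesicles, rose from 11.5 to 43.9 FPKM (1.85). In overexpressing cells Gga2 had 48.3 and 44.8 FPKM.

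Plbd1, which belongs to the phospholipase B family, rose in both experiments, from 0.23 to 11.1 FPKM (3.29) in sorted cells and from 0.75 to 3.03 FPKM (1.20) in overexpressing cells. Subunits of the AP-3 adaptor, which routes membrane proteins such as the LAMPs to lysosomes, differed between the experiments. In overexpressing cells Ap3m1 fell from 24.6 to 5.12 FPKM (-2.07) and Ap3b1 fell from 22.5 to 8.65 FPKM (-1.29). In sorted cells Ap3m1 had 2.34 and 3.37 FPKM and Ap3b1 had 2.58 and 5.07 FPKM. Another subunit, Ap3d1, was under the limit in both experiments. It had 17.2 and 12.7 FPKM (-0.41) in overexpressing cells and 2.05 and 4.90 FPKM (0.95) in sorted cells. Tfec was past the limit in both experiments, being listed at 0.31 FPKM in GFP-OE and at 3.40 FPKM in KLF3-OE cells. In each experiment, Plbd1 and Tfec passed the minimum only through the column where they were higher. In GFP-OE and KLF3-OE cells Tfeb had 10.66 and 16.35 FPKM (0.57), Tfe3 had 31.4 and 27.8 FPKM (-0.17) and Mitf had 2.25 and 0.96 FPKM (-0.73). The further lysosomal genes named here were picked from a list of 48 after their values were seen, whereas all 4 factors are given.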
